A study of Sus scrofa with 35 samples.

Results

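The 10 genes described here encode the antizyme family and the enzymes of polyamine metabolism: OAZ1, OAZ2, OAZ3, AZIN1, ODC1, AMD1, SRM, SMS, SAT1 and SMOX. They were found by name among 45222 gene names on a porcine expression array, and 35 of its 60305 non-control probes carry them. The set was chosen from measured values of these arrays, since OAZ3 was picked for its difference between Creole and Large White muscle, so that difference is given as a description without a test. Of the 35 probes, 34 were kept as expressed, against 41517 of all probes, and each probe was read apart because a gene's probes need not report the same transcript.

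The RNA was taken from the longissimus dorsi (a muscle of the back) of growing, castrated male pigs. The 35 arrays, each from 1 animal, fell into Creole TN, Creole HS, F1 TN, Large White TN and Large White HS with 6 arrays each and F1 HS with 5, where F1 is the cross between Large White and Creole. TN stands for thermoneutrality, labelled 24 °C, and HS for heat stress, labelled 30 °C, while the protocol text gives a challenge at 32 °C lasting 5 days. By the study methods, some HS animals were killed 1 day short of 5 days, and the labels do not say which. The animals of TN were killed on days before the challenge and came from other pens than those of HS, so day, age and pen cannot be told apart from temperature, and littermates within a breed were treated as independent animals.

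Polyamines (putrescine, spermidine and spermine) are small cations that bind RNA and are needed for growth and for translation. Ornithine decarboxylase, ODC1, makes putrescine and limits the pathway, AMD1 supplies the aminopropyl donor, and SRM and SMS add it to form spermidine and spermine. SAT1 acetylates the higher polyamines for export or oxidation, and SMOX oxidises spermine. Antizymes are made through a ribosomal frameshift that polyamines promote. They bind ODC, steer it to the proteasome and curb polyamine uptake, while the antizyme inhibitor AZIN1 takes them out of action. OAZ1 and OAZ2 are found in most tissues, whereas OAZ3 is known as the antizyme of male germ cells.

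The share of probes well above background ran from 58.4% to 75.8% over the arrays. The defining markers of skeletal muscle were present, as all 7 with a kept probe were well above background on every array and their mean log2 intensity was 18.36 or more. The 75th percentile of raw intensity was 9.05 ± 0.17 (SD, n = 18) on the log2 scale at TN and 9.24 ± 0.24 (SD, n = 17) under HS. Placed between the Creole mean (at 0) and the Large White mean (at 1) over the probes that differed between these breeds in a fit without the array concerned, Creole arrays lay at -0.12 to 0.51, F1 arrays at 0.24 to 0.75 and Large White arrays at 0.65 to 1.02. The Creole array at 0.51 was HS replicate 1, which stood apart from the other Creole arrays.

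The probes that carry the results below are 60-base oligonucleotides, given 5′ to 3′ as the array files list them. The OAZ3 probes come first because the breed difference rests on them. The first shares no long run with the other sequence, which was spotted under a pair of names, A_72_P437459 and O3277, and so forms a technical repeat. Capitals mark bases that several probes share.
OAZ3 A_72_P619999: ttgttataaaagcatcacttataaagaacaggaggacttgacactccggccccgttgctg
OAZ3 A_72_P437459 and O3277: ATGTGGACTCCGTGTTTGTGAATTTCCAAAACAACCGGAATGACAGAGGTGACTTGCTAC

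SAT1 probes are shown because SAT1 carried most of the calls under heat stress. The first pair shares no long run with the other probes, and the last 4 have in common the 35 bases in capitals, so they read nearly one site and are not independent readouts.
SAT1 A_72_P077626: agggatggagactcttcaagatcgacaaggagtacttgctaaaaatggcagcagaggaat
SAT1 A_72_P565577: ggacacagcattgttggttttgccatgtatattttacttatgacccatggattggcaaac
SAT1 A_72_P584277: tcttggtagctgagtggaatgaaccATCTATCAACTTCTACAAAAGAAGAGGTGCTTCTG
SAT1 A_72_P600768: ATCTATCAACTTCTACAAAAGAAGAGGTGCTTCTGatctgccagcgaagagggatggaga
SAT1 A_72_P633056: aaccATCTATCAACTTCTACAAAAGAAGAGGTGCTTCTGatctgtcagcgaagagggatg
SAT1 A_72_P661012: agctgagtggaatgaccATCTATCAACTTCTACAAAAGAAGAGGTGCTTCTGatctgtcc

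OAZ3 was low in Creole muscle and higher in Large White muscle, with F1 animals spread between the breeds. All values that follow are log2 quantile-normalised intensities of 1 probe. On A_72_P437459, Creole TN arrays ranged from 5.21 to 5.48 (median 5.37) and Creole HS arrays from 5.11 to 5.58 (median 5.37). Large White TN arrays ranged from 7.12 to 8.22 (median 7.64) and Large White HS arrays from 5.60 to 7.81 (median 7.72). No Creole array reached a Large White array of the same condition on this probe, although the lowest Large White HS array lay just above the highest Creole HS array.

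Most Creole values were at the level of the background. A_72_P437459 was well above background on 0 of 6 Creole TN and 2 of 6 Creole HS arrays, and on all 12 Large White arrays. Ratios were therefore taken with the lowest signal above background of each array as a floor for its Creole value. At TN, where every Creole array was dim, the Large White mean was 4.91-fold the Creole mean on the quantile-normalised scale. At HS, with 2 Creole arrays measured, it was 3.86-fold. For the same sequence spotted as O3277 the ratios were 4.53-fold at TN and 3.45-fold at HS, with 1 of 6 Creole arrays above background in each condition. Over the 35 arrays these spots differed by a median of 0.17 log2 and at most by 0.49. All of these ratios hold for this scale and floor alone. The floor comes from other probes of the array and is no detection limit of this spot, so the ratios are not strict lower bounds. Over 12 alternatives the Creole minus Large White difference ran from -3.84 to -1.56 log2 on A_72_P437459 and from -3.79 to -1.35 on O3277. Both probes passed the filter on dim probes through Large White and F1 TN and not through Creole, so the filter itself favours a difference.

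The brightest OAZ3 probe, A_72_P619999, was well above background on all 35 arrays and showed a smaller difference in the same direction. Creole TN arrays ranged from 6.20 to 6.46 (median 6.31) and Large White TN arrays from 6.55 to 7.40 (median 6.84), without overlap. Creole HS arrays ranged from 6.22 to 6.41 (median 6.32) and Large White HS arrays from 6.24 to 7.18 (median 7.04), with 1 Large White array inside the Creole range. The Large White mean was 1.51-fold the Creole mean at TN and 1.55-fold at HS. In the model over all arrays the Creole minus Large White difference was -0.61 log2 (SE 0.10) on this probe, -2.14 (SE 0.28) on A_72_P437459 and -2.05 (SE 0.27) on O3277.

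**Figure D1:**
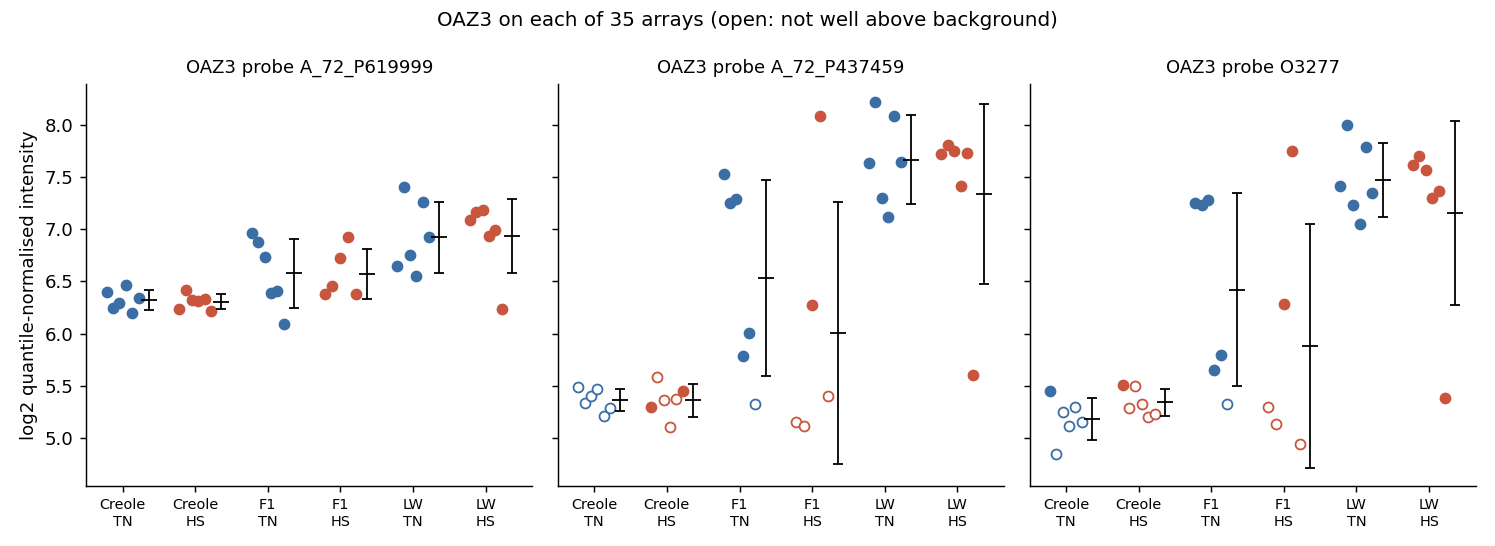
Log2 quantile-normalised intensity (vertical axis) of the 3 OAZ3 probes on each array by group (horizontal axis, LW for Large White), with the group mean ± SD as a bar. Creole arrays lie together at the bottom, 5.11 to 5.58 on A_72_P437459, most of them open because they were not well above background, while F1 arrays span 5.12 to 8.08.

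F1 animals did not form a compact group. On A_72_P437459 the 5 F1 HS arrays read 5.15, 5.12, 6.28, 8.08 and 5.40, from the Creole level to within the Large White range. The 6 F1 TN arrays ranged from 5.32 to 7.52 (median 6.63). This probe was above background on 2 of 5 F1 HS and 5 of 6 F1 TN arrays. The SD in F1 was 0.94 at TN and 1.25 at HS, against 0.11 and 0.16 in Creole. The order of the group means was the same on all 3 probes, with both Large White groups above both F1 groups and these above both Creole groups, but F1 and its neighbours overlapped on every probe.

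A single Large White array departed from its group on all 3 probes. Large White HS replicate 6 read 5.60 on A_72_P437459, where the other 5 arrays read 7.41 to 7.81, and 6.24 on A_72_P619999, where the next lowest was 6.93. Over the probes that separate the breeds this array lay at 0.81 on the scale from Creole (0) to Large White (1), inside the range of its breed. Without it the difference was -2.30 on A_72_P437459 and -0.68 on A_72_P619999. Within single slides, each holding up to 8 arrays, the Creole minus Large White difference on A_72_P437459 was -2.32, -2.49, -2.15 and -1.10, the last on the slide with this array. On A_72_P619999 it was -0.59, -0.89, -0.60 and -0.06 on the same slides.

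No OAZ3 probe was called for temperature. The HS minus TN change was 0.00 log2 on A_72_P619999 (limma adjusted p = 0.987), with a 95% interval from -0.18 to 0.17. It was -0.28 on A_72_P437459 (limma adjusted p = 0.438) and -0.22 on O3277 (limma adjusted p = 0.542), with intervals from -0.75 to 0.19 and from -0.68 to 0.24.

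Markers of male germ cells, the known site of OAZ3, covered like ranges in the 3 breeds. Of 10 such genes 5 had a kept probe, and their mean log2 intensity was 6.10 to 6.34 over Creole arrays, 6.13 to 6.40 over F1 arrays and 6.04 to 6.46 over Large White arrays. ODF1, a sperm tail protein, and SPAM1, a sperm surface hyaluronidase, were well above background on 0 of 35 arrays. PRM2, a protamine, was above background on 35 of 35 arrays at a mean of 6.10 on its kept probe, but on 1 of 35 at 4.86 on its other probe. TNP2 was above background on 30 arrays on its kept probe and on 0 on its other probes. ACRBP, an acrosome protein, was above background on 35 of 35 arrays on its probes, at 7.77 and 7.43. Its brighter probe was higher in HS by 0.37 (SE 0.09, limma adjusted p = 0.00564). Connective tissue and endothelial markers read lower in Creole than in Large White, as OAZ3 did. All 8 connective tissue genes were lower, with a median of -0.33 log2 (COL3A1, a fibrillar collagen, at -0.43 and DCN, decorin, at -0.28). All 6 endothelial genes were lower, with a median of -0.12 (KDR, a VEGF receptor, at -0.96 and PECAM1, a junction protein, at -0.40). The 12 leukocyte markers with a kept probe had a median of -0.18. The T cell marker CD8A, at -0.44, was the only called one, while CD74 (0.06), CSF1R (0.04) and PTPRC (0.03) lay on the other side. The mean of the connective tissue list ranged from 12.45 to 13.998 over Creole and from 13.43 to 14.25 over Large White arrays, that of the endothelial list from 9.88 to 10.38 and from 10.22 to 10.76. Their part in the OAZ3 difference was not tested.

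The genes beside OAZ3 on the chromosome were checked in the order of the RefSeq table for Sscrofa11.1. MRPL9, a mitochondrial ribosomal protein whose entry overlaps that of OAZ3, read higher in Creole, by 0.26 log2 (SE 0.06) and 0.29 (SE 0.06) on its probes, the opposite side from OAZ3. On the kept probes of RIIAD1, CELF3 and SNX27, 1 each, the difference lay between -0.09 and 0.07. TDRKH, the immediate neighbour on the other side, was above background on at most 5 arrays.

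Over the 35 arrays, each other gene with a symbol was compared by its brightest kept probe, 9152 genes in all, for likeness to OAZ3. For A_72_P619999 the highest Pearson r were those of NIF3L1 (0.70), PARVB (0.70), CAMK1D (0.69), PKD2 (0.67) and DYNC1LI2 (0.66). For A_72_P437459 they were those of DCPS (0.76), KIT (0.72), CAMK1D (0.71), ANXA11 (0.71) and PARVB (0.70). These genes share the breeds and arrays with OAZ3, and all of them had lower values in Creole, such as DCPS, the scavenger decapping enzyme (-1.39 log2), and KIT, a receptor tyrosine kinase of pigment and blood-forming cells (-1.92).

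Probes of the other 9 genes read close to each other in Creole and Large White. The 3 OAZ3 probes, which the choice of the set fixes, were the only called ones among the 34 (8.82%), where 3.65% of all probes were called, and nothing is read from this. The remaining 31 probes lay between -0.24 and 0.17 log2. F1 against the midpoint of its parents called 0 of 34 probes, where 0.246% of all probes were called. An unadjusted limma p under 0.05 was reached by 3 of the 34 and by 3055 of all 41517 probes. On A_72_P619999 the F1 minus midpoint difference was -0.05 (SE 0.09, limma adjusted p = 0.965).

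SAT1 was higher in HS, and so by less were some probes of OAZ1 and AZIN1. Of the 34 member probes 11 were called, all higher in HS (32.4%), where 16% of all probes were called in either direction and 7.73% as higher. SAT1 alone gave 7 of the 11, and without its probes 4 of 26 were called (15.4%), all higher in HS. That share was close to the 16% called in either direction and above the 7.73% called as higher. The median change was 0.13 log2 over the member probes and -0.02 over all probes. Of all calls, 48.2% were higher in HS, a share that scaling to spike-in controls moved to 86.2% and the 75th percentile of the processed signal to 37.5%.

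**Figure D2:**
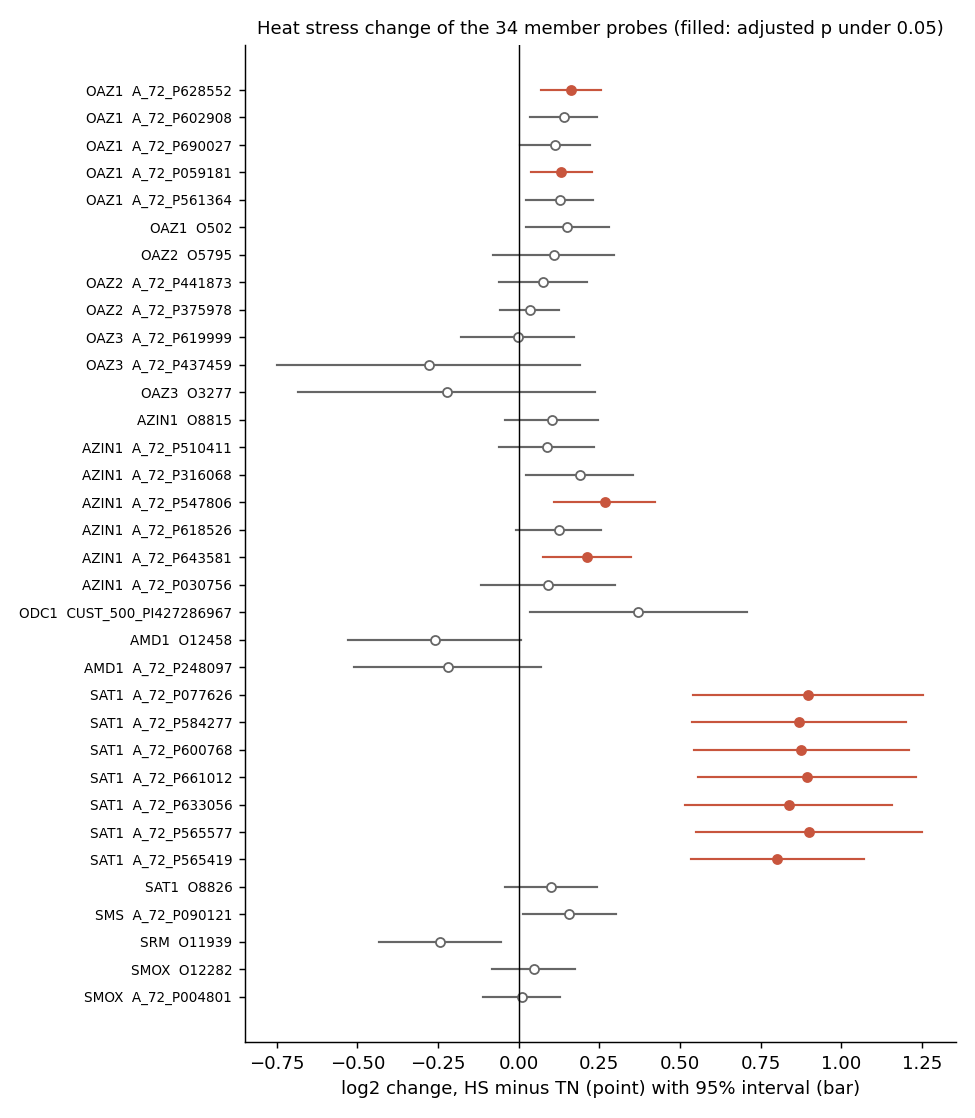
HS minus TN change in log2 units (horizontal axis, points) with its 95% interval (bars) for the 34 kept member probes (vertical axis), from limma over 35 arrays, filled where the adjusted p was under 0.05. The 7 filled SAT1 points stand at 0.80 to 0.90, apart from every other probe, and SAT1 probe O8826 lies at 0.10.

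SAT1, the acetyltransferase that starts polyamine catabolism, was higher in HS on 7 of 8 probes, by 0.80 to 0.90 log2 with limma adjusted p-values from 0.000193 to 0.000939. On its brightest probe, A_72_P077626, Creole TN arrays ranged from 10.004 to 11.54 (median 11.06) and Creole HS arrays from 11.67 to 12.55 (median 11.90), without overlap. F1 TN arrays ranged from 10.80 to 12.41 (median 11.29), and the 5 F1 HS arrays read 11.95, 11.69, 12.52, 12.51 and 11.47, within the range of TN except for 2 arrays.

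Large White followed Creole in size but with overlap. Large White TN arrays ranged from 10.26 to 12.15 (median 10.71) and Large White HS arrays from 11.26 to 12.54 (median 11.89), so the highest TN array exceeded all but 1 HS array. Over all arrays the mean was 11.10 ± 0.65 (SD, n = 18) at TN and 11.99 ± 0.40 (SD, n = 17) under HS. The fitted change was 0.90 log2 (SE 0.18, limma adjusted p = 0.000939), or 1.86-fold, and all 17 HS arrays lay above the TN mean of their breed.

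The eighth probe, O8826, named Sat1 in the files, was not called. It shares no run of 15 or more bases with the others, was much dimmer (mean 6.90, against 9.62 to 11.53 for the rest), and read 6.85 ± 0.22 (SD, n = 18) at TN and 6.95 ± 0.21 (SD, n = 17) under HS, a difference of 0.10 (limma adjusted p = 0.346). Why it departs from the others was not tested. A probe with the same 60 bases as A_72_P077626 but no gene name in the files gave 0.94 log2 (SE 0.19, limma adjusted p = 0.00112).

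**Figure D3:**
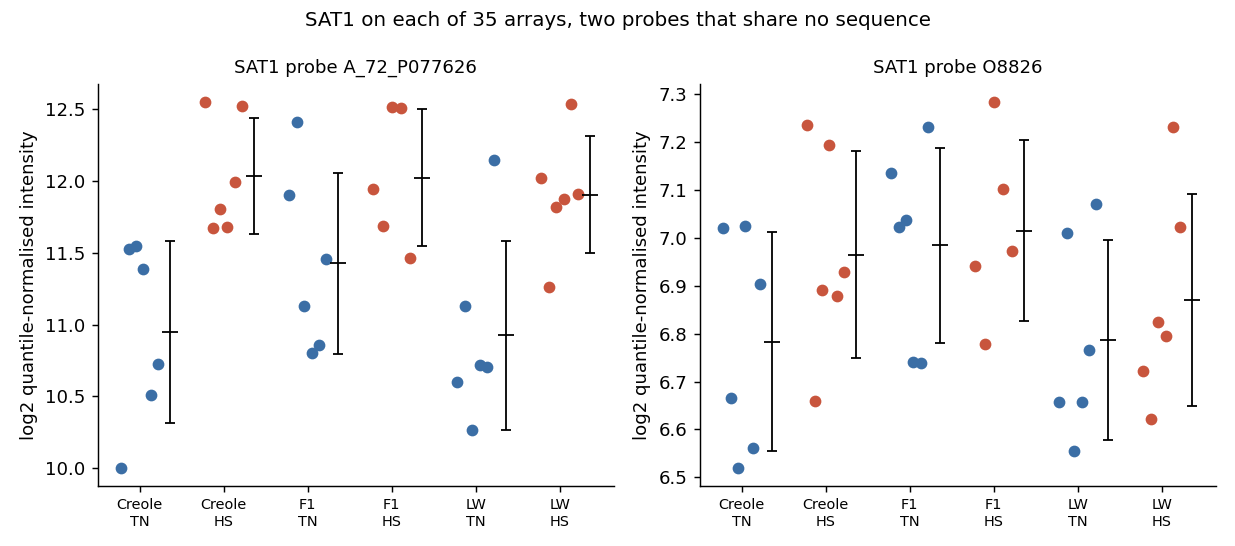
Log2 quantile-normalised intensity (vertical axes, with separate scales) of SAT1 probes A_72_P077626 and O8826 on each array by group (horizontal axis, LW for Large White), with the group mean ± SD as a bar. On A_72_P077626 all 6 Creole HS arrays lie above all 6 Creole TN arrays, while O8826 shows no such step.

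By breed, the change on A_72_P077626 was 1.09 log2 (SE 0.30) in Creole, 0.60 (SE 0.32) in F1 and 0.98 (SE 0.30) in Large White. Within Creole 5 member probes were called, 4 of SAT1 and AZIN1 probe A_72_P547806, where 1.91% of all probes were called. The calls are fragile, since the 7 SAT1 probes had limma adjusted p-values from 0.0389 to 0.0549 and leaving out a single array gave 0 to 9 called, with the count moved by over 1.5 times for 26 of the 35 arrays. Within F1 and within Large White 0 members were called, where 0.00482% of all probes were called in each. An unadjusted limma p under 0.05 was reached in F1 by 7 of 34 members and 3443 of all 41517 probes. In Large White it was reached by 8 of 34 members and 6896 of all probes. In Large White 7 members were called without TN replicate 6, and 1 without HS replicate 3 or without Creole TN replicate 1. Breed by temperature interaction called 0 of 34 members and 0% of all probes (smallest limma adjusted p 0.963, with 1 member and 1592 of all probes at an unadjusted p under 0.05), so the smaller value in F1 was not shown to differ.

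Markers of leukocytes moved with SAT1. Of 16 such genes 12 had a kept probe, 10 read higher in HS and 6 passed the test, among them LYZ, lysozyme (2.26 log2, limma adjusted p = 0.00332), and LAPTM5, a lysosomal protein of blood cells (1.26, limma adjusted p = 0.000893). PTPRC, the pan-leukocyte surface marker, was at -0.02 (limma adjusted p = 0.906) and MS4A1, a B cell marker, was above background on 24 arrays. The mean log2 intensity of the 12 ranged from 7.68 to 9.93 over TN arrays and from 8.82 to 10.24 over HS arrays. In bulk muscle, more cells of a type and more RNA per cell cannot be told apart.

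Across the 35 arrays the genes most like SAT1 were BLNK (Pearson r 0.96), NPL (0.95), LAPTM5 (0.95), EVI2B (0.95) and FLVCR2 (0.94). When the mean of the leukocyte markers entered as a covariate, the change on A_72_P077626 was 0.28 log2 (SE 0.08, limma adjusted p = 0.0433). Then 6 of the 7 SAT1 probes were called at 0.28 to 0.48, where 5.15% of all probes were called. With array brightness as a covariate the change on A_72_P077626 was 0.66 (limma adjusted p = 0.0193). Connective tissue markers also read higher in HS on 8 of 8 genes, 4 of them called, with means of 12.45 to 14.01 in TN and 13.50 to 14.25 in HS. HBB, beta globin of red blood cells, fell by 1.21 (limma adjusted p = 0.000533), and endothelial markers read lower in HS on 5 of 6 genes, of which VWF passed the test (-0.37, limma adjusted p = 0.00225). The endothelial mean was 9.96 to 10.76 in TN and 9.86 to 10.51 in HS. The part of these cell types in the SAT1 change was not tested. Within single slides the SAT1 change was 1.04, 0.24, 1.60 and 0.87 log2.

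**Figure D4:**
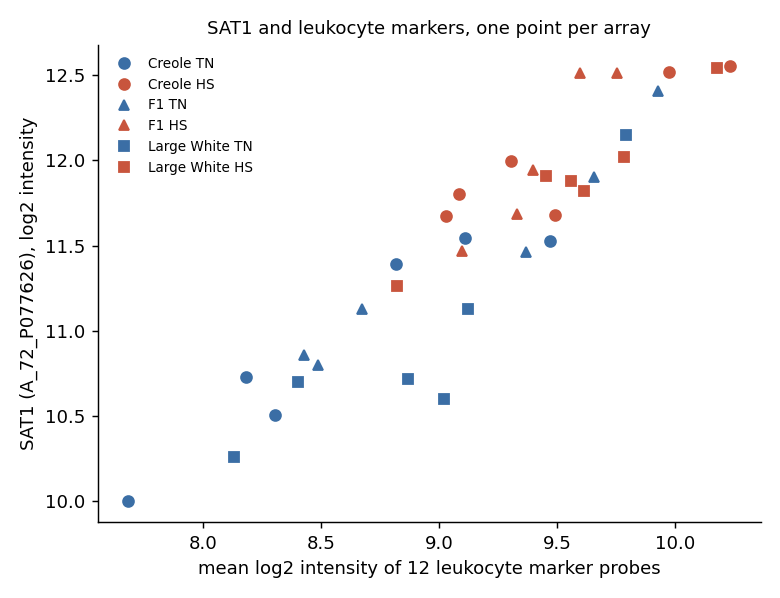
SAT1 log2 intensity on A_72_P077626 (vertical axis) against the mean log2 intensity of 12 leukocyte marker probes (horizontal axis), 1 point per array, blue for TN and red for HS, with the shape giving the breed. Arrays with higher marker means tended to have higher SAT1 in both conditions, and TN arrays reach down to 7.68 on the horizontal axis.

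OAZ1, the main antizyme, read slightly higher in HS on all 6 probes, by 0.11 to 0.16 log2, and 2 passed the test. Its brightest probe, A_72_P628552, averaged 17.30 ± 0.14 (SD, n = 18) at TN and 17.47 ± 0.10 (SD, n = 17) under HS, and 16 of 17 HS arrays lay above the TN mean of their breed. The change was 0.16 (SE 0.05, limma adjusted p = 0.0147). It depended on scaling, with 0.00 (limma adjusted p = 0.97) for the processed signal at the 75th percentile and 0.10 (limma adjusted p = 0.14) for median scaling, and with leukocyte markers or array brightness as a covariate it was 0.08 (limma adjusted p = 0.343) or 0.16 (limma adjusted p = 0.0661). By breed the change on A_72_P628552 was 0.17 in Creole, 0.19 in F1 and 0.13 in Large White, which was the highest Creole value of the 6 probes. Over the 6 probes it ran from -0.004 to 0.17 in Creole, 0.19 to 0.29 in F1 and 0.04 to 0.19 in Large White. The other called probe, A_72_P059181, was at -0.004 in Creole, 0.26 in F1 and 0.15 in Large White. No OAZ1 probe was called for the interaction (smallest limma adjusted p 0.963). A probe on the opposite strand of OAZ1, sharing 39 bases in reverse with A_72_P059181, was dimmer (mean 8.28) and at -0.05.

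OAZ2, the second antizyme of most tissues, gave no call on 3 probes. Its brightest probe, O5795, averaged 13.48 ± 0.31 (SD, n = 18) at TN and 13.59 ± 0.25 (SD, n = 17) under HS. The change was 0.11 (SE 0.09, limma adjusted p = 0.459), with a 95% interval from -0.08 to 0.30. Scaling to the spike-in controls and array brightness as a covariate each called 1 OAZ2 probe (smallest limma adjusted p 0.00608 and 0.0482).

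AZIN1, which holds antizymes in check, lay on the same side as OAZ1. All 7 probes read 0.09 to 0.27 log2 higher in HS and 2 passed the test. These were A_72_P547806, at 9.80 ± 0.26 (SD, n = 18) at TN and 10.07 ± 0.19 (SD, n = 17) under HS (change 0.27, SE 0.08, limma adjusted p = 0.0161), and A_72_P643581 (change 0.21, SE 0.07, limma adjusted p = 0.0283). By breed the change on A_72_P547806 was 0.47 (SE 0.12) in Creole, 0.28 (SE 0.13) in F1 and 0.06 (SE 0.12) in Large White. On A_72_P643581 it was 0.38, 0.18 and 0.08 in the same order. Over the 7 probes Large White ran from -0.18 to 0.20. No AZIN1 probe was called for the interaction (smallest limma adjusted p 0.963). The brightest probe, O8815, was not called (0.10, limma adjusted p = 0.346). The same sequence spotted as A_72_P510411 gave 0.09 and differed from it by a median of 0.05 over the arrays. With leukocyte markers as a covariate the 7 probes lay at 0.08 to 0.285 and none was called (smallest limma adjusted p 0.0657), and with array brightness they lay at 0.07 to 0.26, again with no call (smallest limma adjusted p 0.0672).

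ODC1, whose breakdown antizymes promote, varied between animals by more than its change. Its probe averaged 13.31 ± 0.54 (SD, n = 18) at TN and 13.68 ± 0.44 (SD, n = 17) under HS, with 12 of 17 HS arrays above the TN mean of their breed. The change was 0.37 (SE 0.17, limma adjusted p = 0.12), with a 95% interval from 0.04 to 0.71, not adjusted for the number of probes. Without Creole TN replicate 2 it was 0.45 (limma adjusted p = 0.043), with array brightness as a covariate 0.16 (limma adjusted p = 0.644), and with leukocyte markers it turned to -0.14 (limma adjusted p = 0.536). Creole TN arrays alone ranged from 12.26 to 14.41 (median 13.07), and Creole HS arrays from 13.29 to 14.33 (median 13.73). A probe sharing 45 of its bases gave 0.31 (SE 0.16, limma adjusted p = 0.171), and a probe named ODC in the files, assigned to ODC1 through its accession, gave 0.27 (SE 0.15, limma adjusted p = 0.214).

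The enzymes that build spermidine and spermine gave no call. SRM, spermidine synthase, averaged 11.19 ± 0.31 (SD, n = 18) at TN and 10.94 ± 0.28 (SD, n = 17) under HS, with 14 of 17 HS arrays below the TN mean of their breed and a difference of -0.24 (SE 0.09, limma adjusted p = 0.0683). With leukocyte markers as a covariate it was -0.44 (limma adjusted p = 0.00971), and with array weights -0.22 (limma adjusted p = 0.038). Spike-in scaling gave -0.10 (limma adjusted p = 0.674) and median scaling -0.18 (limma adjusted p = 0.273). Leaving out Creole HS replicate 1, Large White HS replicate 5 or Creole TN replicate 6 gave -0.28, -0.28 and -0.27 (limma adjusted p = 0.0404, 0.0329 and 0.0431).

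AMD1, which decarboxylates S-adenosylmethionine, averaged 11.20 ± 0.45 (SD, n = 18) at TN and 10.93 ± 0.35 (SD, n = 17) under HS on probe O12458, a difference of -0.26 (SE 0.13, limma adjusted p = 0.177). Its second probe gave -0.22 (limma adjusted p = 0.304), and a probe with another name that shares 49 bases with O12458 gave -0.24 (limma adjusted p = 0.215). On O12458, 15 of 17 HS arrays lay below the TN mean of their breed. Single TN arrays were high, up to 12.26 in Creole and 11.87 in Large White, and the medians moved less evenly. From TN to HS they went from 10.88 to 11.04 in Creole, from 11.28 to 10.92 in F1 and from 10.91 to 10.85 in Large White.

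SMS, spermine synthase, averaged 10.49 ± 0.20 (SD, n = 18) at TN and 10.64 ± 0.22 (SD, n = 17) under HS on A_72_P090121, a difference of 0.16 (SE 0.07, limma adjusted p = 0.126), or 0.19 without Large White HS replicate 2 (limma adjusted p = 0.0339). It was 0.07 with array brightness as a covariate (limma adjusted p = 0.634) and -0.03 with leukocyte markers (limma adjusted p = 0.821). The value was 0.37 (SE 0.12) in Creole, 0.02 (SE 0.12) in F1 and 0.07 (SE 0.12) in Large White. The other SMS probe was well above background on 5 of 35 arrays and was not tested. SMOX, the spermine oxidase, differed by 0.05 (limma adjusted p = 0.657), with a 95% interval from -0.08 to 0.18, and by 0.01 on its second probe (limma adjusted p = 0.938).

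**Figure D5:**
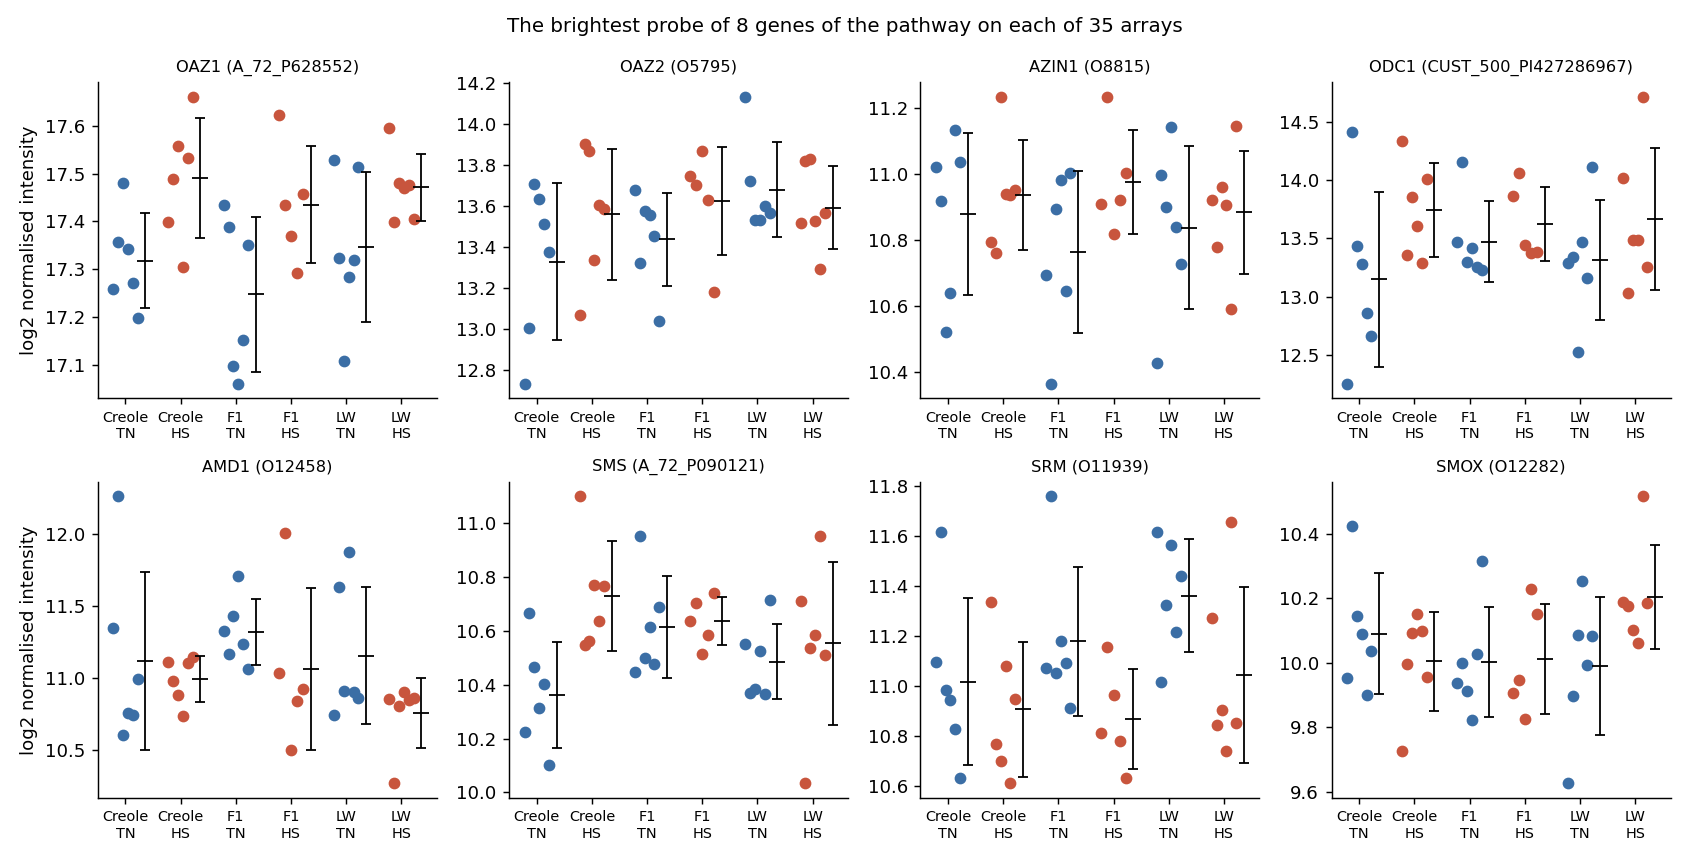
Log2 quantile-normalised intensity (vertical axes, with separate scales) of the brightest kept probe of 8 member genes on each array by group (horizontal axis, LW for Large White), with the group mean ± SD as a bar. TN and HS arrays overlap within every breed for all 8 genes, and ODC1 in Creole TN spans 12.26 to 14.41.

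The wider pathway was read from a list of 28 genes for arginine and methionine supply, eIF5A and its hypusine modification, methionine salvage and transport. Of these, 21 had a kept probe, 1 was higher in HS, 3 were lower and 17 were not called, where 16% of all probes were called, with a median of -0.09 log2. The list was judged by its brightest kept probes.

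The largest change among the 21 was in SLC3A2, the heavy chain of amino acid transporters, which averaged 10.57 ± 0.51 (SD, n = 18) at TN and 9.85 ± 0.30 (SD, n = 17) under HS. It fell by 0.72 log2 (SE 0.14, limma adjusted p = 0.000939), was below the TN mean of the breed on 17 of 17 HS arrays, and its 2 other kept probes were also called. DHPS, which makes the first step of hypusine in eIF5A, fell by 0.34 (SE 0.07, limma adjusted p = 0.0015), with 16 of 17 HS arrays below. Its substrate EIF5A was at -0.10 (limma adjusted p = 0.0965).

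MAT2B, the regulatory subunit of S-adenosylmethionine synthesis, was higher in HS by 0.28 (SE 0.09, limma adjusted p = 0.0222) and on both other kept probes, while the catalytic MAT2A was at 0.13 (limma adjusted p = 0.334). SLC22A2, an organic cation transporter at a mean of 5.76 and above background on 32 arrays, fell by 0.14 (SE 0.04, limma adjusted p = 0.0307). ARG2, the arginase that supplies ornithine, was at -0.63 (SE 0.25, limma adjusted p = 0.0782). SAT2, the relative of SAT1, was at 0.28 (limma adjusted p = 0.0938), and PAOX, which oxidises the products of SAT1, at 0.07 (limma adjusted p = 0.556).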

How the data were processed

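Muscle RNA of 35 pigs was labelled with Cy3 by the authors, hybridised to 1-colour Agilent porcine arrays and quantified with Feature Extraction 10.10.1.1. The deposited scanner files hold linear intensity values, background and quality flags, and the authors' deposited table holds log2 values after quantile normalisation. Here log2 of the median pixel intensity was taken and the log2 values were then quantile-normalised. A probe was kept where at least 75% of the arrays of 1 or more groups read it well above background. The flags also gave the counts of arrays above background. No spot was saturated, and 105 outlier spots were left out. Members were probes whose gene name matched, in any case. Each gene was described by its brightest kept probe and its other probes by counts and ranges. The fits used limma 3.58.1 (R 4.3.3) and Benjamini-Hochberg adjustment at 0.05 over 41517 probes, with breed and temperature additive, or 1 mean per group for changes within breeds and the interaction. The labels lack the random terms of the study methods (pen, slaughter day, parents), which no fit here holds. Where animals of a pen, day or litter resemble each other, p-values here are too small and calls for temperature too many. The number of arrays limits precision. The code was tested on simulated data. Members and lists were chosen with earlier results of these data known. Pathway genes were named where called, with a few related genes chosen after their values were seen. Some neighbouring or marker genes are not reported here. Alternatives covered scaling, filter, slide, weights, covariates and left-out arrays.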

Additional observations from a re-analysis of the deposited data

Results flagged for a closer look

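Several arrays stood apart from the rest of their group by Dixon's criterion, the gap to the nearest array over the range of the group. It was applied to 12 probes in 6 groups, 72 combinations, and 8 passed, where chance gives about 5%, or 3.6.

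Large White HS replicate 6 was the lowest of its group on all 3 OAZ3 probes, with a ratio of 0.741 on A_72_P619999, 0.822 on A_72_P437459 and 0.826 on O3277. Since the last pair is 1 sequence, these are not independent. The raw intensity of this array was 51 on A_72_P437459, and it was still scored as well above background.

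F1 TN replicate 2 was the highest of its group for ODC1 (14.15, next 13.47, ratio 0.735) and for SRM (11.76, next 11.18, ratio 0.686). The other flags were Large White TN replicate 1, highest for OAZ2 (14.14, next 13.72, ratio 0.679), Large White HS replicate 2, lowest for AMD1 (10.27, next 10.81, ratio 0.847), and Large White HS replicate 5, highest for SMOX (10.52, next 10.19, ratio 0.718).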

How the results depend on the processing

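The count of 11 member probes called for HS minus TN ranged from 9 to 12 when 1 array was left out and from 7 to 15 over 13 alternatives. It left the range within 1.5 times only with leukocyte markers as a covariate, at 7, of which 6 were called without it. The share of all probes called moved as well, from 16% in the main fit to between 12.6% and 20.6% when 1 array was left out. It was 21.8% with array weights (15 members), 5.07% with brightness (8 members) and 5.15% with leukocyte markers (7 members). SAT1 stayed past the threshold under all alternatives that gave a test, at 0.28 to 1.03 log2. OAZ1 lost its call under the processed signal, median scaling, brightness and leukocyte markers. SMS gained a call with array weights, and SRM with array weights and with leukocyte markers. The largest shift of the all-probe median was to 0.07, under spike-in scaling. Within Creole the 5 calls became 1 with the processed signal and with spike-in scaling, 2 with array weights, and 0 with no filter, slide as a fixed block, brightness or leukocyte markers, and 0 to 9 when 1 array was left out, including arrays of other breeds through the shared spread. Within Large White the 0 calls became 1 with the processed signal and with slide as a random block, 4 with spike-in scaling and with array weights, 5 with slide as a fixed block, and 0 to 7 when 1 array was left out, 7 without TN replicate 6. Creole minus Large White gave 3 or 4 member calls, and F1 against the midpoint, F1 HS minus TN and the interaction gave 0, under every alternative run. The OAZ3 difference was -0.61 with -0.68 to -0.57 when 1 array was left out, -2.14 with -2.30 to -2.08 on A_72_P437459, and -2.05 with -2.22 to -1.997 on O3277. With the processed signal, which subtracts background, it was -3.84 on A_72_P437459 and -3.79 on O3277, and with normexp it was -1.35 on O3277, so its size on dim probes rests on the background treatment while its direction did not change. Naming probes through their accession added 1 ODC1 probe and no call. No paired analysis was possible because replicate numbers follow the order of deposition and link no animals across groups.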
